A study of Mus musculus with 8 samples.

Results

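The Notch signalling genes examined here were the receptors Notch1, Notch2 and Notch3, the ligands Jag1, Jag2 and Dll1, the nuclear complex members Rbpj and Maml1, and the target genes Hes1 and Hey1. Their N6-methyladenosine (m6A) was read from the 4 peak lists of a MeRIP-seq experiment, an assay that enriches mRNA fragments with an anti-m6A antibody (the IP) and sequences them beside the unselected RNA (the input). The members were the rows of the lists that carry 1 of these 10 gene names, which gave 59 peaks of 38705 and 8 genes with a peak of the 9779 that had one. The cells were mouse embryonic fibroblasts (MEFs) from wild-type C57BL/6 embryos, which were either left in full medium (the control) or starved by 2 h in nutrient-deprived medium, with 2 IP and 2 input libraries per group. Only the IP libraries have a list. No allele or agent other than the medium separated the groups, and the study's supplement calls the replicates of a group biological ones. The comparison asks how starvation changes m6A on mRNAs.

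Notch receptors are single-pass membrane proteins that are cleaved when a ligand of the Jagged or Delta-like family on a neighbouring cell binds them. The released intracellular domain enters the nucleus, joins the DNA-binding protein RBPJ and the coactivator Mastermind-like (MAML1), and switches on repressor genes of the Hes and Hey families. m6A is the most abundant internal mark of mRNA, is written mostly near stop codons and in long exons, and is read by proteins that alter the translation and decay of the mRNA.

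A peak is a stretch where the IP was enriched over its own input, and its fold enrichment is the ratio of IP to input. Peaks of different libraries that shared at least 1 bp were joined into a region, and a library's value in a region is its highest fold enrichment there. A missing peak means that the stretch did not pass the peak caller, not that it carried no m6A, because the lists give neither read depth nor mRNA level. The bulk libraries also cannot tell a change in the share of methylated molecules from a change in which cells held the mRNA. The lists held 8974 to 10103 peaks, and the median fold enrichment over all peaks was 12.21 and 12.27 for control against 14.58 and 14.69 for starved MEFs. Of 12 fibroblast marker genes 10 carried a peak (Col1a1 and Vim did not), against 1 of 4 blood, 2 of 4 endothelial and 2 of 4 epithelial markers, and a peak does not measure expression. Wherever Rbpj is given, the peaks in 2 of its 3 regions are uncertain, since the genome holds near-identical copies of those sequences.

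The sites that carry the comparison are printed here as 30 nt of the mRNA strand in the GRCm38 (mm10) genome from RefSeq, with the GGAC motif in capitals. GGAC is a common form of the m6A consensus, with the A as the base that is methylated, and the printed copy is the one nearest to the mean centre of the library peaks. The peaks on these genes are at least 200 bp wide, so a match marks a candidate position and not a measured site. The first set comes from regions that were called in every library.
Notch2 exon 25, coding, chr3:98135423-98135452, plus strand: gcctgaaccccaaGGACtgcgagtcaggat
Notch2 exon 34, 3′UTR, chr3:98149058-98149087, plus strand: tatattattagggGGACcacctgggggtgt
Maml1 exon 5, 3′UTR, chr11:50257757-50257786, minus strand: aagcaactactttGGACcaaaagccatggc
The second set, chosen after the values were seen, holds the sites of the regions with a peak in 3 libraries, which were present in both groups but not in every library.
Notch1 exon 34, 3′UTR, chr2:26458505-26458534, minus strand: ctggcctgggtggGGACatgccttgagtgt
Notch3 exon 33, coding, chr17:32122452-32122481, minus strand: cactgtcaccggtGGACtctctggactcac
Jag1 exon 26, coding, chr2:137083065-137083094, minus strand: ggacaaataaacaGGACaacagagacttgg
Rbpj exon 11, 3′UTR, chr5:53653947-53653976, plus strand: aacatagacttatGGACcaagggactcgca
The third set, also chosen after the values were seen, holds 1 region seen only in the starved libraries (Notch2) and 1 seen only in the control libraries (Jag1).
Notch2 exon 31, coding, chr3:98143118-98143147, plus strand: atgcaaatgcccaGGACaacatgggccgat
Jag1 exon 26, 3′UTR, chr2:137082072-137082101, minus strand: agacacattttaaGGACtgactgaggcaga

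The Jag1 coding site lay 57 nt before the stop codon and the Maml1 site 76 nt after it, while the Notch2 exon 34 site lay 1627 nt into the 3′UTR. All 4 libraries had a peak over the printed motif in Notch2 exon 25 and in Maml1, and 3 libraries had one over it in Notch2 exon 34. In the second set it lay under the peaks of 3 libraries in Notch1, Jag1 and Rbpj but of only 2 in Notch3, and in the third set under the peaks of 2 libraries in Notch2 and of only 1 in Jag1. The starved-only regions of Maml1 exon 2 and of the Rbpj 3′UTR held no GGAC anywhere in their length, so no site is printed for them. In a 200 bp window at the region centre, GGAC on the mRNA strand was found in 18 of 34 Notch regions (52.9%) and in 61.0% of 20764 regions of the lists with a known strand, so the motif was no more frequent in the Notch regions.

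Starved MEFs had more peaks on the receptor mRNAs and fewer on the ligand Jag1 and the targets than control MEFs. The receptors held 8 and 5 peaks in the control and 12 and 10 in the starved lists, the ligands 2 and 3 against 0 and 1, and the targets 1 and 2 against 0 and 0. In these 3 classes the groups did not overlap, but without Notch2 the receptors held 5 and 2 peaks against 5 and 3, which overlap. Single genes had more peaks in both starved than in both control lists in 5.42% of all cases and fewer in 7.56%. No such share was computed for sums over several genes, so these are not a like background for the classes. The nuclear complex overlapped, with 2 and 4 peaks against 3 and 6. All 10 genes together held 13 and 14 peaks in the control and 15 and 17 in the starved lists. The control mean was 13.5 ± 0.707 and the starved mean 16 ± 1.41 (SD, n = 2), although the starved lists were shorter as a whole. This rise of 2.5 peaks came from Notch2, whose own mean difference was 4, so the rest of the genes together did not gain peaks. Fewer of the 10 genes carried a peak, 7 and 8 in the control lists against 5 and 6 in the starved lists. Over all genes the number with a peak was also lower, with 6387 and 6171 against 6159 and 5839. Notch1, Notch2, Notch3, Maml1 and Rbpj had a peak in all 4 lists, 5 of the 8 members with a peak against 29.2% of all genes with a peak. Jag2 and Dll1 had no peak in any list.

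**Figure D1:**
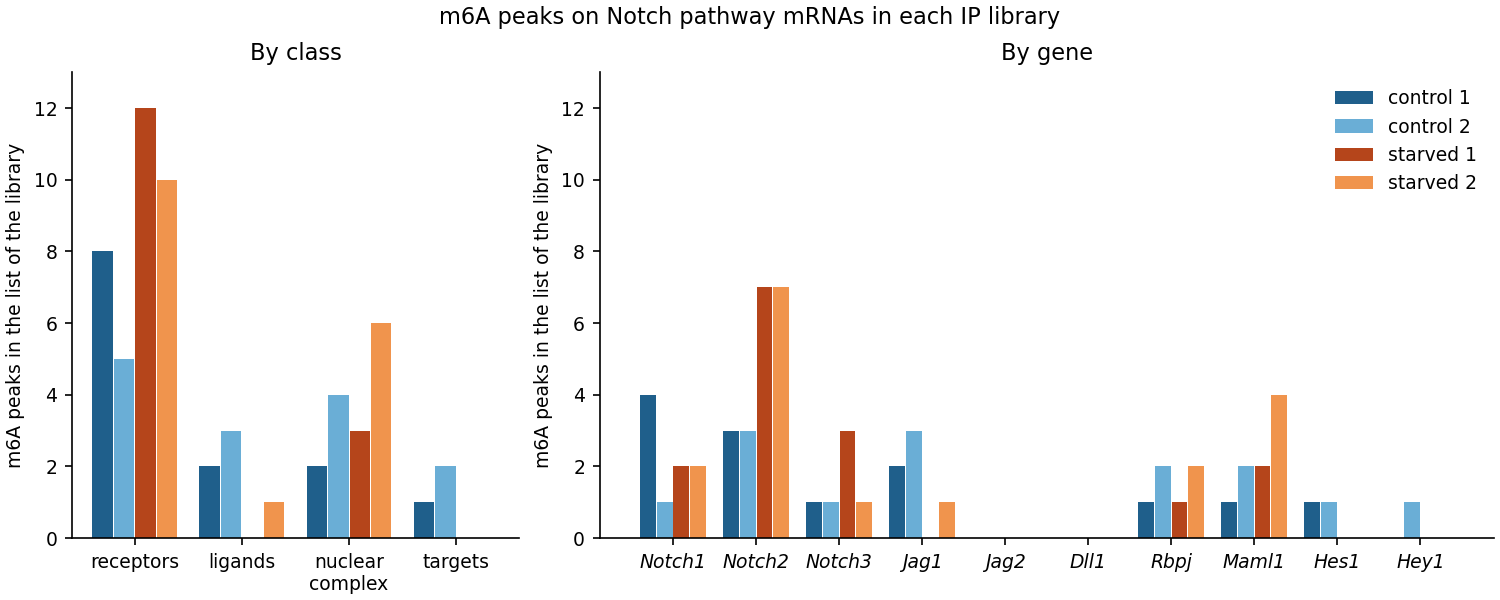
Number of m6A peaks in the list of each IP library, by class (left) and by gene (right), with a bar for each of the 2 control and 2 starved libraries. Notch2 stands at 3 peaks in each control library and 7 in each starved library, while Jag1, Hes1 and Hey1 have most or all of their peaks in the control libraries.

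Of the 59 peaks, 37 lay in the last exon, and the 34 regions were centred in the coding sequence in 21 cases, in the 3′UTR in 12 and in the 5′UTR in 1. The stop codon was spanned by 7 regions, in Notch2, Notch3, Jag1, Rbpj, Maml1, Hes1 and Hey1. A peak in a single library made up 21 of the 34 regions (61.8%), against 56.2% of all 21168 regions, and a peak in all 4 libraries 3 regions (8.82%), against 10.7%. The Notch regions thus repeated between libraries about as often as the rest. Of the single-library regions 8 came from a control and 13 from a starved library. These are 23.5% and 38.2% of the Notch regions, beside 29.5% and 26.7% of all regions. Notch2 held 8 of the 13 and 0 of the 8, and outside Notch2 fewer of them came from starved than from control libraries.

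**Figure D2:**
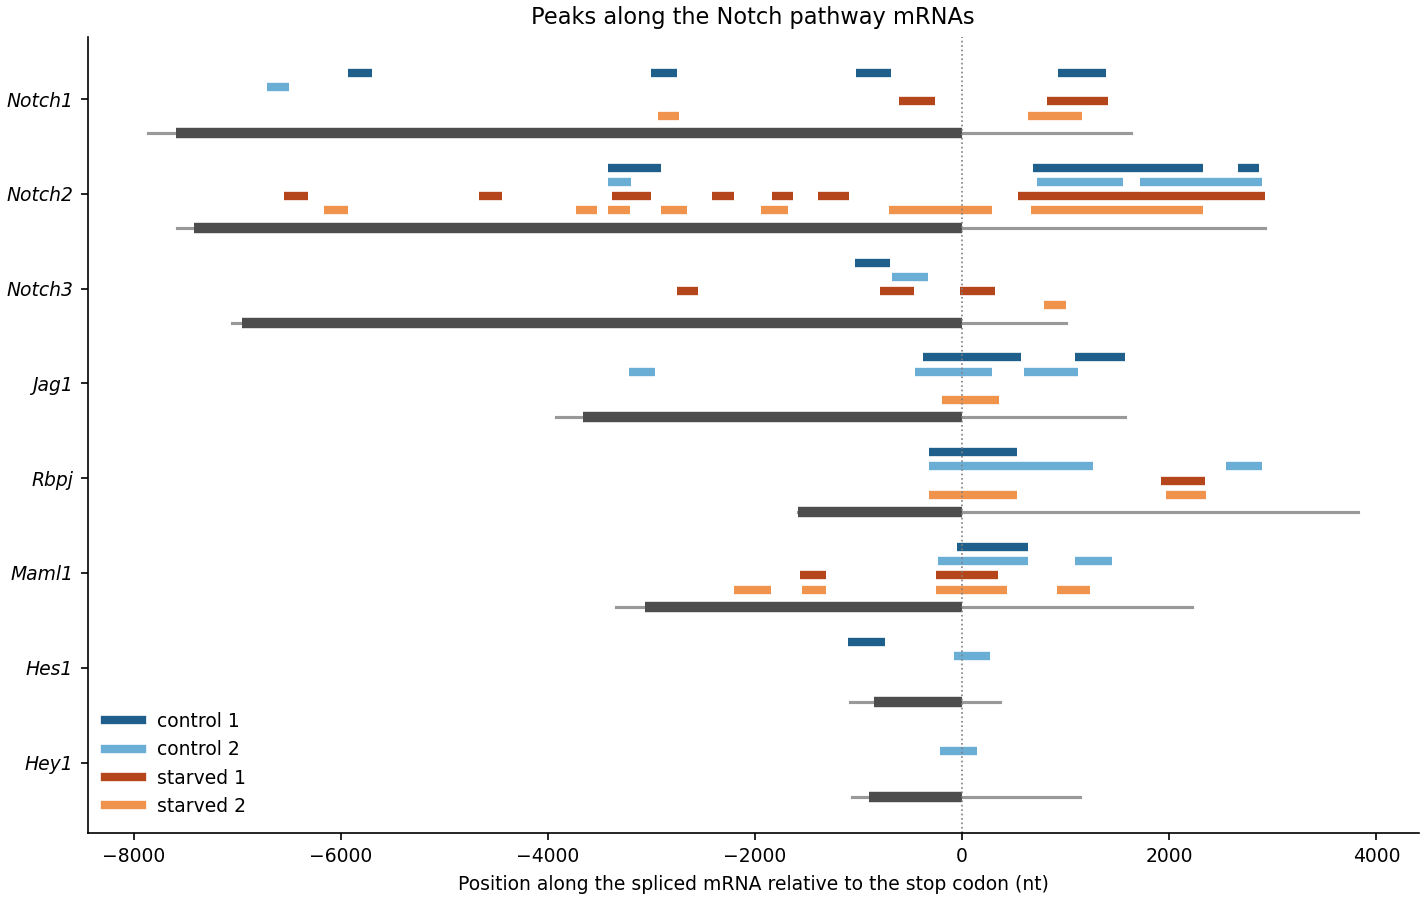
Peaks of the 8 genes along the spliced mRNA, in nt from the stop codon (dotted line), with a coloured bar for each peak by library and, beneath, the coding sequence as a thick and the UTRs as a thin grey line. Peaks of several libraries overlap at the stop codon in Jag1, Rbpj and Maml1 and in the 3′UTR of Notch2. Other peaks of Jag1, Rbpj and Maml1 lie far from the stop codon. The starved libraries have additional, mostly unshared peaks along the Notch2 coding sequence.

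Among the receptors, Notch2 had more peaks after starvation. It held 3 peaks in each control library and 7 in each starved library, so that the groups did not overlap, and the covered length went from 2350 and 2225 bp (control) to 3931 and 3805 bp (starved). More peaks in both starved than in both control lists were found for 5.42% of all genes and for 7.53% of the 664 genes with at least 10 peaks, to which Notch2 belongs with 20. However, the additional peaks did not fall at the same places. Of 11 Notch2 regions, 8 had a peak in a single library, 4 in starved 1 and 4 in starved 2, and none in a control library alone. In starved 1 these lay in exons 6, 18, 28 and 34, and in starved 2 in exons 8, 23, 26 and 34, where the last of them spanned the stop codon with a fold enrichment of 12.87. The highest was 35.61, in exon 8. When only peaks of at least 5-fold were kept, Notch2 had 2 and 3 peaks against 5 and 5, and with an FDR under 20% it had 1 and 2 against 3 and 3.

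The regions that Notch2 shared between libraries differed in both directions. In exon 25 (chr3:98135326-98135831, coding), the control libraries had fold enrichments of 8.87 and 6.72 and the starved libraries 4.59 and 3.54. Both starved values lay below both control values. In the 3′UTR part of exon 34 (chr3:98147979-98150367), the control libraries had 18.01 and 12.5 and the starved libraries 21.95 and 30.55. There both starved values lay above both control values, and the peaks covered 1844, 2007, 2389 and 1658 bp in the same order, so the covered length did not separate the groups. In exon 31 (chr3:98142893-98143194, coding), a peak was called in neither control library and in both starved libraries, with 11.65 and 3.76. The second of these was weak, at the 4.75th percentile of the folds of its library.

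Notch1 did not differ in this way. Its control libraries held 4 and 1 peaks and its starved libraries 2 and 2, so the groups overlapped. Its most repeated region lay in the 3′UTR of exon 34 (chr2:26458125-26458898) and reached 18.76 in control 1, 58.34 in starved 1 and 9.69 in starved 2, with no peak in control 2. The value of the lone control library lay between those of the starved libraries. A region in coding exon 26 was held by control 1 with 11.9 and by starved 2 with 11.12, which are nearly the same value in the 2 groups. The other 4 Notch1 regions each had a peak in 1 library, in exons 6, 11 and 34.

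Notch3 held 1 peak in each control library, 3 in starved 1 and 1 in starved 2. Its shared region lay in the coding part of the last exon, exon 33 (chr17:32122149-32122852), with 63.15 and 123.65 in the control libraries, 17.97 in starved 1 and no peak in starved 2. The lone starved value was below both control values, which stood at the 91.4th and 96.6th percentiles of the folds in their libraries. The 2 control peaks did not overlap each other and were 19 bp apart, joined only by the starved 1 peak. The other Notch3 peaks were all from starved libraries and from 1 library each, with 53.8 over the stop codon and 51.13 in exon 24 in starved 1 and with 9.74 at the 3′ end in starved 2. The exon 24 stretch has a match of 90.6% identity over 191 nt elsewhere in the genome.

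**Figure D3:**
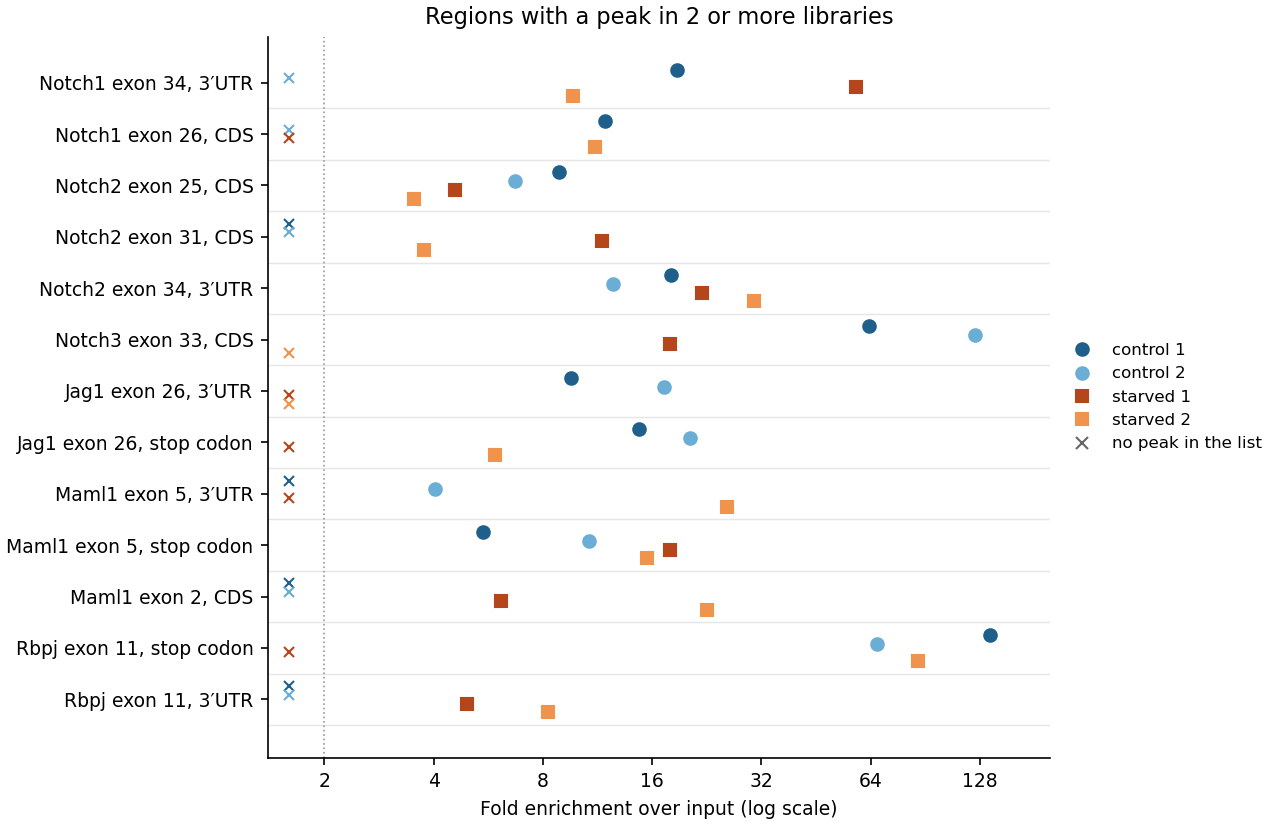
Fold enrichment over input (log scale) in each library for the 13 regions with a peak in at least 2 libraries, named by gene, exon and part of the mRNA, with circles for control and squares for starved libraries and a cross where the list holds no peak, left of the dotted line at 2, the lowest fold of the lists. Both starved values lie below both control values in Notch2 exon 25 and above them in the 3′UTR of Notch2 exon 34 and at the Maml1 stop codon.

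Among the ligands, only Jag1 could be compared, and it had fewer peaks after starvation. Its control libraries held 2 and 3 peaks and its starved libraries 0 and 1, without overlap. Fewer peaks in both starved than in both control lists were found for 7.56% of all genes. In the region over the stop codon (chr2:137082457-137083481), the fold enrichment was 14.71 and 20.35 in control, 5.91 in starved 2, and starved 1 had no peak. The lone starved value was below both control values. A second region, in the 3′UTR (chr2:137081451-137082428), had 9.57 and 17.22 in the control libraries and no peak in either starved library. It was the 1 region of 34 with this pattern, which 4.15% of all regions showed. The 2 control peaks shared only 30 bp, and with a required overlap of 50% of the shorter peak they were no longer joined. The third Jag1 region, in exon 4, had a peak in control 2 alone, with 8.07. For Jag2 and Dll1, the lists cannot tell an mRNA without m6A from one with too few reads.

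In the nuclear complex, Maml1 had the higher enrichment after starvation at its stop codon. Its region in exon 5 (chr11:50257217-50258104) had 5.47 and 10.72 (control) and 17.94 and 15.44 (starved). Both starved values lay above both control values, which differed between themselves by more than the starved ones. In coding exon 2 (chr11:50265595-50265850), a peak was called only in the starved libraries, with 6.12 and 22.59. Further peaks lay in exon 2 in starved 2 alone, with 21.52, and in the 3′UTR in control 2 with 4.03 and starved 2 with 25.78. Altogether Maml1 held 1 and 2 peaks against 2 and 4 after starvation, so the groups met at 2 peaks.

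Rbpj, the DNA-binding partner of the Notch intracellular domain, held 1 and 2 peaks in either group. Over its stop codon in exon 11 (chr5:53653305-53654881), the fold enrichment was 136.29 and 66.64 in control and 86.45 in starved 2. The starved value lay between the control values, and all 3 stood above the 91st percentile of their libraries, but starved 1 had no peak there. In the 3′UTR further downstream (chr5:53655544-53655970), only the starved libraries had a peak, with 4.96 and 8.27. Both regions have near-identical copies in the genome, the first with 99.6% identity over 1577 nt at Rbpj-ps3 on chromosome 6 and the second with 100% identity over 427 nt beside it. Weaker matches, of 91.1% and 90.8% identity, lie on chromosome 4. No list had a peak at these copies, and reads from the pseudogene and from Rbpj could be shared or discarded by the alignment, whose part in these values was not tested.

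The Rbpj 3′UTR, Maml1 exon 2 and Notch2 exon 31 were the 3 of 34 regions (8.82%) that both starved lists and no control list contained, a pattern of 3.2% of all regions. Each of them had 1 value of 6.12 or less. With a minimum of 5-fold only Maml1 exon 2 kept the pattern, and with an FDR under 20% none did.

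The targets had peaks only in the control libraries. Hes1, a repressor that Notch signalling induces in many cell types, had a peak with 11.91 in control 1 and a peak with 3.57 in control 2 and none in the starved libraries. The peaks lay at different places, in the 5′UTR of exon 1 and over the stop codon in exon 4, so neither was seen again in a second library. A peak in both control lists and in neither starved list was held by 4.56% of all genes. Hey1, a related repressor, had 1 peak, with 39.01 over the stop codon in control 2. Genes with a peak in 1 or both control lists and in no starved list, like both targets, made up 19.3% of all genes.

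A difference could be tested only for the 3 regions called in every library. On the log2 scale, the control libraries stood at 2.95 ± 0.28 (SD, n = 2) and the starved ones at 2.01 ± 0.26 in Notch2 exon 25, a difference of -0.94. In the 3′UTR of Notch2 exon 34 they stood at 3.91 ± 0.37 and 4.69 ± 0.34, a difference of 0.79. At the Maml1 stop codon they stood at 2.94 ± 0.69 and 4.06 ± 0.15, a difference of 1.12. All 3 had groups that did not overlap, 1 lower and 2 higher in the starved libraries. Of the 2257 regions called in every library, 22.9% were higher and 18% lower in this way. A two-sided exact permutation test gave p = 0.333 for each region, which is the smallest value that 2 libraries against 2 allow, so no difference could pass 0.05. The median difference over all 2257 regions was 0.10, and relative to it the differences were -1.04, 0.68 and 1.02. They stood at the 15.4th, 75.4th and 84.0th percentiles of all regions, within the bulk of the distribution. Because the groups did not overlap, leaving out a library could change only the size of these differences and not their direction. The Maml1 difference was 0.63 without control 1 and 1.61 without control 2. The Notch2 exon 34 difference lay between 0.52 without control 2 and 1.05 without control 1.

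**Figure D4:**
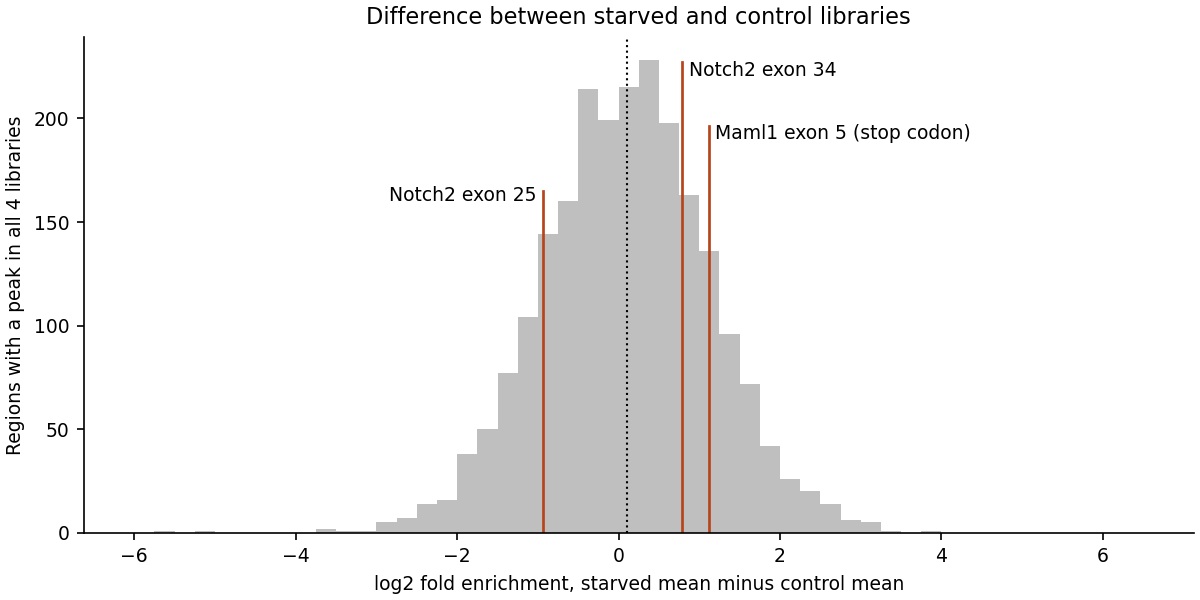
Histogram of the difference in log2 fold enrichment, starved mean minus control mean, over the 2257 regions called in every library, with the median of 0.10 dotted and the 3 Notch pathway regions as orange lines. Notch2 exon 25 (-0.94) lies left of the median, and Notch2 exon 34 (0.79) and the Maml1 stop codon (1.12) lie right of it, all inside the main body of the histogram.

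Over all Notch pathway peaks, the median fold enrichment was 14.71 and 11.58 for control against 12.2 and 11.12 for starved MEFs. The groups overlapped, with a difference of -0.16 on the log2 scale, whereas the median over all peaks was 0.26 higher in the starved libraries. The direction of the Notch value depended on single choices, since it was 0.12 among peaks of at least 5-fold and 0.012 without control 1. Notch peaks with a score of at least 3100, a value that many strong peaks share, numbered 2 and 2 for control against 5 and 6 for starved MEFs. Over all peaks their share was also higher after starvation, with 28.2% ± 0.556 against 15.1% ± 2.66 (SD, n = 2).

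The other genes of the pathway were described from a list of 52. Of these, 41 had a peak, and 12 of the 41 had one in all 4 lists, beside 29.2% of all genes with a peak. The control lists held 53 and 60 of their peaks and the starved lists 50 and 46, while the whole lists fell in the same way from 10103 and 9871 to 9757 and 8974. Of the 41 genes 2 had more and 5 had fewer peaks in both starved than in both control lists. Over all genes with a peak the shares were 5.42% and 7.56%. Of their 104 regions, 17 had a peak in all 4 libraries, and in 5 of these both starved values lay above both control values (29.4%, beside 22.9% of all such regions) and in 0 below (18% of all). Among them were regions in Poglut1, which glucosylates the receptor, and in the acetyltransferase genes Crebbp and Kat2a. The Poglut1 region had 28.38 and 11.69 (control) and 47.41 and 36.19 (starved). The Kat2a region had 12.9 and 5.01 (control) and 27.11 and 18.88 (starved). The Crebbp region had 4.97 and 4.44 (control) and 5.81 and 29.98 (starved). The groups did not overlap in Poglut1, Kat2a or Crebbp. However, the control replicates differed by more than 2-fold in Poglut1 and Kat2a. In Crebbp the starved replicates differed widely, and starved 1 was only slightly above the control values.

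The starved lists alone, both of them, contained 5 of the 104 regions (4.81%, beside 3.2% of all regions), in Ep300, Furin, Tle1 and at 2 places in Spen. Spen, a corepressor that binds RBPJ, had 35.86 and 90.94 at one of them and 17.91 and 9.97 at the other. Furin, the protease that processes the receptor on its way to the cell surface, had 8.45 and 4.95. The opposite pattern was held by 6 regions (5.77%, beside 4.15% of all regions), among them regions in Hes6, Mib1, Ncor1 and Numb. Numb, which inhibits Notch signalling, had 9.74 and 17.45 in the control libraries. Mib1, the ubiquitin ligase that activates Notch ligands, had 4.13 and 5.58.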

How the data were processed

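MeRIP-seq was done on MEFs in full or nutrient-deprived medium, with 2 IP and 2 input libraries per group, grouped by the labels. Per the labels and the methods, the authors used Cutadapt for trimming and HISAT2 2.0.4 for alignment to mm10, called peaks with MACS2 in each IP against its own input and kept peaks over mRNA exons. The deposited lists give the fold enrichment (a ratio of IP to input), a score derived from the log10 of the p-value and an FDR in percent for each peak. These columns are those of an earlier MACS than the MACS2 version that the methods name. The FDR and the score therefore serve only as filters and descriptions. A fold depends on the input at that place, and depth is not given in the lists, so counting error could not be given. A deposited table of the authors' own comparison (fold changes and p-values of differential sites) was not used.

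Peaks were joined into regions by an overlap of at least 1 bp. Exons, strand and sequence came from RefSeq GRCm38.p6, the assembly of mm10, and list starts were shifted by 1 base. Copies were searched with blastn 2.17.0 (at least 90% identity over 50% of the region). Differences were tested with the exact permutation test in scipy 1.17.1, and other results are descriptions. Joining, patterns and the test were checked on simulated peak lists. Members and lists were chosen with earlier results of these data known. All 10 members are named, with values for regions in at least 2 libraries. Other pathway genes are named only where a region was held by both libraries of 1 group alone or had non-overlapping folds in all 4, and some of these are not reported here. Alternatives were peaks of at least 5-fold, an FDR under 20%, equal list lengths, assignment by coordinates, a 50% overlap, a mean for the median, a replicate block and leaving out each library. Figures were drawn with matplotlib 3.10.9.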

Additional observations from a re-analysis of the deposited data

How the results depend on the processing

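The differences in peak number for all members, receptors, ligands and targets kept their direction under every alternative that gave a value. So did those of the 3 regions called in every library. Notch2 exon 25 gave no value at 5-fold or more, and neither it nor Maml1 gave one under the FDR limit. Leaving out a library could not turn these directions, since the groups did not overlap, and a replicate block keeps the mean difference. No alternative left out Notch2, whose difference of 4 peaks is larger than the 2.5 of all members. The nuclear complex fell to a difference of 0 without starved 2. With peaks of at least 5-fold, the Notch2 difference went from 4 to 2.5 peaks, the median log2 fold difference turned from -0.16 to 0.12, and regions of the starved libraries only went from 3 to 1 and those of the control libraries only from 1 to 2. With an FDR under 20%, these were 1.5, 0.26 and 0 starved-only regions, and 1 region remained with a peak in all 4 libraries. A 50% overlap left 0 control-only regions. The next 2 alternatives were added after seeing the data. Without Rbpj the median difference was 0.053. With the mean of a library's peaks for the highest, the Notch2 exon 34 difference was 1.21, since control 1 has a second peak there of 2.07. Assignment by coordinates gave the same 59 peaks. With equal list lengths the members held 12 and 14 peaks in control and 14 and 17 after starvation, which met at 14. With peaks of at least 5-fold they held 12 and 12 against 12 and 15, which met at 12, and under the FDR limit the receptors held 4 and 3 against 8 and 4, which met at 4.

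Leaving out 1 library at a time gave peak differences from 1.5 to 3.5 for all members, 3 to 6 for receptors, -2.5 to -1.5 for ligands, 0 to 3 for the nuclear complex, -2 to -1 for targets and 4 to 4 for Notch2. The median difference ran from -0.34 to 0.012, turning sign without control 1. Regions in all libraries numbered 3 to 5, starved-only 3 to 10 and control-only 1 to 6, partly because fewer libraries are then required. Without starved 1 they numbered 5, 9 and 1, without starved 2 they numbered 4, 10 and 3, without control 1 they numbered 3, 4 and 6, and without control 2 they numbered 4, 3 and 4. The differences ran from -1.14 to -0.74 for Notch2 exon 25, 0.52 to 1.05 for Notch2 exon 34 and 0.63 to 1.61 for Maml1. A replicate block left the differences at -0.94, 0.79 and 1.12, with the smallest possible exact permutation p of 0.5. The deviations of same-numbered libraries had a correlation of -0.017 over the 2257 regions. With 2 libraries per group the crossed value, 0.017, is the same with its sign turned. The sources do not say whether equal numbers pair the libraries, and this correlation of fold ratios alone cannot decide it.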

Other observations

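Of the 59 Notch pathway peaks, 27 touched an exon edge, where the lists cut peaks to exons, so their width and centre are those of the exon part. Their FDR, as the peak caller gave it, ran from 7.52% to 71.72%, with library medians of 18.96% and 14.9% (control) and 16.75% and 13.57% (starved), beside medians over all peaks of 21.16% and 18.9% and of 15.9% and 15.78%. A high FDR was found among the named peaks too, with 62% for Notch2 exon 25 in starved 2 and 48.6% for the Hes1 stop codon peak in control 2.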
